A study of Sus scrofa with 21 samples.

Results

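Endothelial cells line the inner wall of every blood and lymph vessel. In the testis the vessels run between the seminiferous tubules, where they carry gonadotropins to the Leydig cells and take androgens away. Endothelial cells are recognised by a small set of genes for cell-cell junctions, for the receptors of vascular endothelial growth factor (VEGF) and the angiopoietins, and for proteins that bind platelets or growth factors of the TGF-beta family. The levels of 10 such genes were followed here in testis RNA of boars: PECAM1, CDH5 and ESAM of the junctions, VWF of haemostasis, the VEGF receptors KDR and FLT1, the Tie receptors TEK and TIE1, the TGF-beta family co-receptor ENG, and the secreted protein EGFL7. They were chosen by gene symbol from the 25880 genes counted, and each of the 10 has 1 row in every library.

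Whole testis tissue of purebred Norwegian Landrace and Duroc boars, collected at slaughter, was sequenced, with 1 library per boar. The labels sort the boars by sperm hyperactivity, the vigorous asymmetric beat of the sperm tail. Contrast (i) compares 4 Landrace boars of high (L5, L6, L7 and L8) with 4 of low (L1, L2, L3 and L4) hyperactivity at ejaculation, on day 0. Contrast (iii) compares 3 Landrace boars with a high (L7, L13 and L15) and 4 with a low (L2, L9, L10 and L12) difference in hyperactivity from ejaculation to 96 h of liquid storage of the semen. L2 and L7 stand in both contrasts. Of the 8 Duroc boars, 5 are labelled High (D1 to D5) and 3 Low (D6, D7 and D9), while the list of boars in the study's own text gives the opposite group for most of these names. The Duroc groups are therefore given as labelled. For the Landrace contrasts the study's text and its count table differ on which group had the higher counts, so high and low are those of the deposited labels, and crossed labels would turn the sign of every difference in contrasts (i) and (iii). Boars of both breeds were picked for extreme hyperactivity. The breeding boars were of widely mixed age at semen collection, and the age of each boar or group was not analysed here.

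The libraries held 41358671 to 125576407 counts on genes. Levels are CPM, the share of a library's counts on genes times 1000000, with TMM scaling (edgeR's trimmed mean of log ratios) over all 21 libraries and scaling factors from 0.822 in L8 to 1.18 in L3. Mitochondrially encoded genes took 1.03% to 4.02% of the counts. The 10 endothelial genes together took 0.00276% to 0.0112%. In such bulk samples fewer endothelial cells and less RNA per cell cannot be told apart. The row counted here as VWF (ENSSSCG00000000712) carries that name in the study's gene table, while the identifier table used here gives it the name of its neighbour ANO2. In RefSeq's Sscrofa11.1 annotation VWF lies on chromosome 5 at 64516627 to 64655938, and counts of called genes are given with and without this row. In the same annotation TIE1 lies on chromosome 6 at 167919662 to 167947253 and ENG on chromosome 1 at 268309379 to 268343861. PECAM1 lies on chromosome 12, CDH5 on 6, ESAM on 9, KDR on 8, FLT1 on 11 and TEK on 1, and EGFL7 on an unplaced scaffold.

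The summed level of the 10 genes ran from 33.6 CPM in L8 to 105 CPM in D5, with a median of 68.9 CPM. Boar L8, of high hyperactivity at day 0, had one of the 3 lowest levels of 8 of the 10 genes. D5 had one of the 3 highest of 7 genes. FLT1, a VEGF receptor that also exists as a soluble decoy, varied least, with its highest level 2.85-fold above its lowest and a coefficient of variation of 21.3%. For the other members the highest level was 4.85-fold (PECAM1) to 28.9-fold (EGFL7) above the lowest. Depth bears on the weakest members. EGFL7 reached only 1 to 19 counts and 1 CPM in 0 of 21 libraries, ESAM reached 1 CPM in 7, TIE1 in 12, ENG in 19 and CDH5 in 20, and the other 5 in all 21.

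**Figure D1:**
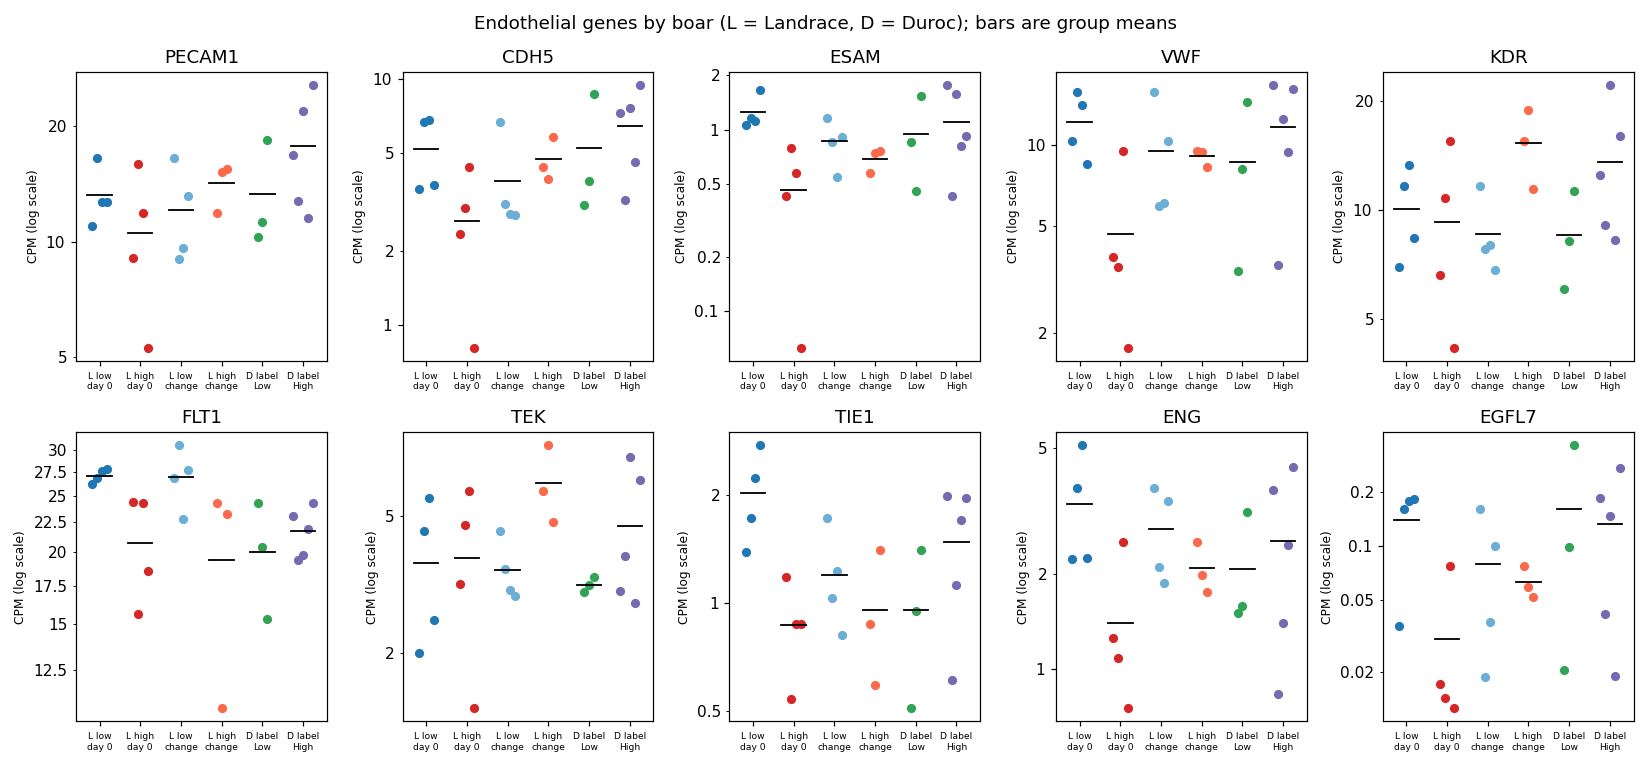
Each panel plots 1 endothelial gene, with the CPM of every boar on a log axis against its labelled group (L low and high at day 0, L low and high change over storage, Duroc labelled Low and High), a point per boar and a bar at each group mean. L2 and L7 appear in both Landrace contrasts. The day 0 low boars lie above all day 0 high boars for ESAM, FLT1 and TIE1, and the L8 point is the lowest of 21 for PECAM1, CDH5, ESAM, VWF, KDR, TEK, ENG and EGFL7.

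Contrast (i) asked which genes differ in testis between boars of high and low hyperactivity at ejaculation. VWF, TIE1 and ENG were lower in the high group, by 1.29 to 1.44 on the log2 scale, and no endothelial gene was higher. KDR and TEK, which carry the main VEGF and angiopoietin signals, differed by less than their standard errors (SE). With p-values from the quasi-likelihood test of edgeR, adjusted over 12979 genes by Benjamini-Hochberg, 3 of the 9 members tested passed 0.05, or 2 without the VWF row. Of all genes tested 20.7% passed, 15.8% as lower and 4.82% as higher in the high group. The median log2 fold change of the 9 members was -1.05, beside 0.03 for all genes tested. All 9 had log2 fold changes below 0, as had 47.9% of the genes tested. ESAM entered the test through the low group alone, since 4 low and 0 high libraries reached 1 CPM, and TIE1 through 4 low and 1 high.

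Among the junction genes, PECAM1, an adhesion molecule of endothelial contacts that platelets and leukocytes also carry, was at 9.07, 15.99, 11.9 and 5.29 CPM in the high boars L5 to L8. It was at 10.97, 16.5, 12.7 and 12.7 CPM in the low boars L1 to L4. The groups overlapped, with 10.6 ± 4.52 CPM (SD, n = 4) against 13.2 ± 2.34 CPM, and the log2 fold change of -0.39 (SE 0.29) did not pass (edgeR adjusted p = 0.314).

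CDH5, or VE-cadherin, the adherens junction protein that holds endothelial cells together, was at 2.34, 2.99, 4.38 and 0.802 CPM in the high and 3.57, 6.70, 6.82 and 3.71 CPM in the low boars. Only L7 of the high boars came up to the range of the low ones. The log2 fold change was -1.05 (SE 0.44; edgeR adjusted p = 0.0969). CDH5 passed in only 1 of the 8 fits that leave out a boar, at -1.44 without L7 (edgeR adjusted p = 0.0435). Without L8 it was at -0.74 (edgeR adjusted p = 0.148).

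ESAM, an adhesion molecule of endothelial tight junctions, was at 0.429, 0.797, 0.576 and 0.0627 CPM in the high boars. The low boars had 1.06, 1.16, 1.12 and 1.66 CPM, all above the high ones, as 31.4% of the genes tested did not overlap in this contrast. L8 held only 5 reads of ESAM. The log2 fold change of -1.49 (SE 0.53) was the lowest among the members tested and did not pass (edgeR adjusted p = 0.0638).

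VWF, the large protein that tethers platelets and is stored in endothelial granules, was at 3.83, 3.50, 9.46 and 1.75 CPM in the high boars. In the low boars it was at 10.3, 15.7, 14.01 and 8.45 CPM. L7 was within the low range and the other 3 high boars lay well under it. Group levels were 4.63 ± 3.34 CPM against 12.1 ± 3.31 CPM (SD, n = 4 each), a log2 fold change of -1.44 (SE 0.43; edgeR adjusted p = 0.0391). The two-sided exact permutation test over 70 assignments gave p = 0.0571, where the smallest possible is 0.0286. VWF stayed lower whichever boar was dropped, and 2 of the 8 fits passed, those without L7 and without L4.

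Neither VEGF receptor passed in contrast (i). KDR, the receptor through which VEGF-A drives endothelial growth, was at 6.61, 10.8, 15.5 and 4.16 CPM in the high and 6.97, 11.7, 13.3 and 8.35 CPM in the low boars. The high group spanned the whole range of the low group, and the log2 fold change was -0.19 (SE 0.37; edgeR adjusted p = 0.709). FLT1 was at 24.4, 15.6, 24.3 and 18.5 CPM in the high and at 26.2, 26.8, 27.6 and 27.8 CPM in the low boars. The low boars sat within a narrow band of 27.1 ± 0.736 CPM (SD, n = 4), above every high boar, yet the log2 fold change of -0.46 (SE 0.18) did not pass (edgeR adjusted p = 0.0784).

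Of the Tie receptors TIE1 passed and TEK did not, and the difference between them was not tested. TEK, or Tie2, binds the angiopoietins, and TIE1 is its partner without a ligand of that family. TEK was at 3.18, 4.69, 5.90 and 1.38 CPM in the high and 2.0, 4.51, 5.63 and 2.49 CPM in the low boars, with a log2 fold change of -0.02 (SE 0.45; edgeR adjusted p = 0.976). TIE1 was at 1.19, 0.541, 0.875 and 0.877 CPM in the high and 1.39, 1.72, 2.22 and 2.75 CPM in the low boars. All 4 high boars were below all 4 low boars for TIE1, and the groups were level for TEK. Group levels of TIE1 were 0.869 ± 0.263 CPM against 2.02 ± 0.596 CPM (SD, n = 4 each), a log2 fold change of -1.29 (SE 0.34; edgeR adjusted p = 0.0264). The exact permutation test gave 0.0286, the smallest p it can give. TIE1 rested on 38 to 200 reads per library here, and it lost its call without L3, L4 or L6 (edgeR adjusted p 0.0604, 0.0548 and 0.0635), while the other 5 of 8 fits passed.

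ENG, or endoglin, a co-receptor for BMP9 and TGF-beta on proliferating endothelium, was at 1.25, 1.08, 2.52 and 0.752 CPM in the high boars and 2.23, 3.73, 5.11 and 2.25 CPM in the low. L7 again reached the low range, alone of the high boars. The log2 fold change was -1.31 (SE 0.42; edgeR adjusted p = 0.0468), from 1.40 ± 0.776 CPM against 3.33 ± 1.37 CPM (SD, n = 4 each), and the exact permutation p was 0.0857. It passed in only 1 of the 8 fits that leave out a boar, the one without L7. EGFL7, an endothelial secreted protein that acts on vessel assembly, was not tested, with 1, 1, 7 and 1 reads in the high and 2, 13, 16 and 11 reads in the low boars.

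The calls in contrast (i) hang on single boars beyond these genes. Without L3 or without L6, 0 of the members passed, and without L6 only 1 gene of all passed. A fit of the same contrast with all 21 libraries sharing 1 estimate of the spread called 0 members and 1 gene in all.

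Some markers of other cell types also passed in contrast (i), where 20.7% of all genes tested did, 15.8% as lower and 4.82% as higher. The summed level of 9 spermatocyte genes was 1752 to 2652 CPM in the high and 1262 to 1672 CPM in the low boars, with no overlap, and 1 of the 9 genes rose. That of 12 pericyte and smooth muscle genes was 41.5 to 125 CPM in the high against 80.6 to 171 CPM in the low boars, where 2 of 9 tested fell, with a median log2 fold change of -0.98. Of the lymphatic genes, 1 of 5 tested fell, with summed levels of 73.7 to 89.1 against 72.4 to 108 CPM. This gene was FLT4, counted again below among the receptor partners. Of the blood genes 1 of 2 tested fell, with summed levels of 3.62 to 5.56 against 4.51 to 21.8 CPM. Of the macrophage genes 1 of 4 fell (87.5 to 138 against 70.0 to 105 CPM) and of the spermatid genes 3 of 9 (11912 to 15930 against 9372 to 14089 CPM). These sums lean on their strongest genes, MRC1 (mean 86.2 CPM over all boars) and TNP1 (mean 5744 CPM). Of the Leydig genes 1 of 8 rose (723 to 4939 against 1830 to 2335 CPM), and 0 of 10 Sertoli genes passed (277 to 369 against 264 to 327 CPM). Platelet genes, which share PECAM1 and VWF with endothelium, summed to 0.689 to 2.99 against 0.991 to 2.17 CPM, and GP9 and PPBP were near 0, with means of 0.0384 and 0.0917 CPM. Over the 13 Landrace boars the called VWF, TIE1 and ENG had Pearson's r of -0.90, -0.56 and -0.88 with the level of the spermatocyte list. With the pericyte and smooth muscle list r was 0.82, 0.31 and 0.75. With the wider endothelial list given below it was 0.16, -0.41 and 0.036, while KDR and TEK had 0.82 and 0.79 there. These r were not tested, nor was the part of these cell types in the endothelial differences.

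Contrast (iii) asked which genes differ with the change in hyperactivity over storage. KDR and TEK had log2 fold changes of 0.81 and 0.82, with higher values in the high change boars, and neither passed after adjustment. By edgeR's quasi-likelihood test 0 of the 7 members tested passed, as did 0% of the 12824 genes tested. At an unadjusted p under 0.05 stood 2540 genes (19.8%), KDR and TEK among them. Over all genes a likelihood ratio test called 64 and DESeq2 161, and each called 0 members. ESAM, TIE1 and EGFL7 were below the filter.

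KDR was at 15.5, 18.9 and 11.4 CPM in L7, L13 and L15 and at 11.7, 7.80, 8.02 and 6.85 CPM in L2, L9, L10 and L12. Only L2 of the low boars reached the high range. Group levels were 15.3 ± 3.73 CPM (SD, n = 3) and 8.58 ± 2.12 CPM (SD, n = 4), with SE 0.25 and edgeR adjusted p = 0.24 (unadjusted 0.00778). TEK was at 5.90, 8.04 and 4.79 CPM against 4.51, 3.51, 3.04 and 2.92 CPM, with no overlap, SE 0.26 and edgeR adjusted p = 0.24. The exact permutation test over 35 assignments gave p = 0.0571 for TEK, with 0.0286 the smallest possible. Of the genes tested 16.4% did not overlap. FLT1 went the other way in value, at 24.3, 10.7 and 23.2 CPM against 26.8, 30.6, 22.8 and 27.7 CPM, a log2 fold change of -0.49 (SE 0.27; edgeR adjusted p = 0.308). The remaining members had log2 fold changes from -0.42 (ENG) to 0.26 (CDH5), with edgeR adjusted p of 0.441 and 0.669.

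L13 had the highest KDR of the Landrace boars, the highest TEK of all 21 and the lowest FLT1 of all 21. Without it the log2 fold changes were 0.64 for KDR, 0.61 for TEK and -0.19 for FLT1. L13 also stood apart in the sums of other cell type lists. They were 227 CPM for macrophage, 665 CPM for Sertoli and 6951 CPM for spermatid genes, which are the Landrace extremes. The macrophage sum leans on MRC1 and the spermatid sum on TNP1. In contrast (iii) the pericyte gene RGS5 was at 44.6 to 54.2 CPM in the high and 14.2 to 42.6 CPM in the low change boars. Of the 9 pericyte and smooth muscle genes tested 6 had values above 0 and 3 below, with a median of 0.099. All 8 Leydig genes had values above 0, with a median of 0.57. In both lists 0 genes passed. The part of these cell types was not tested.

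**Figure D2:**
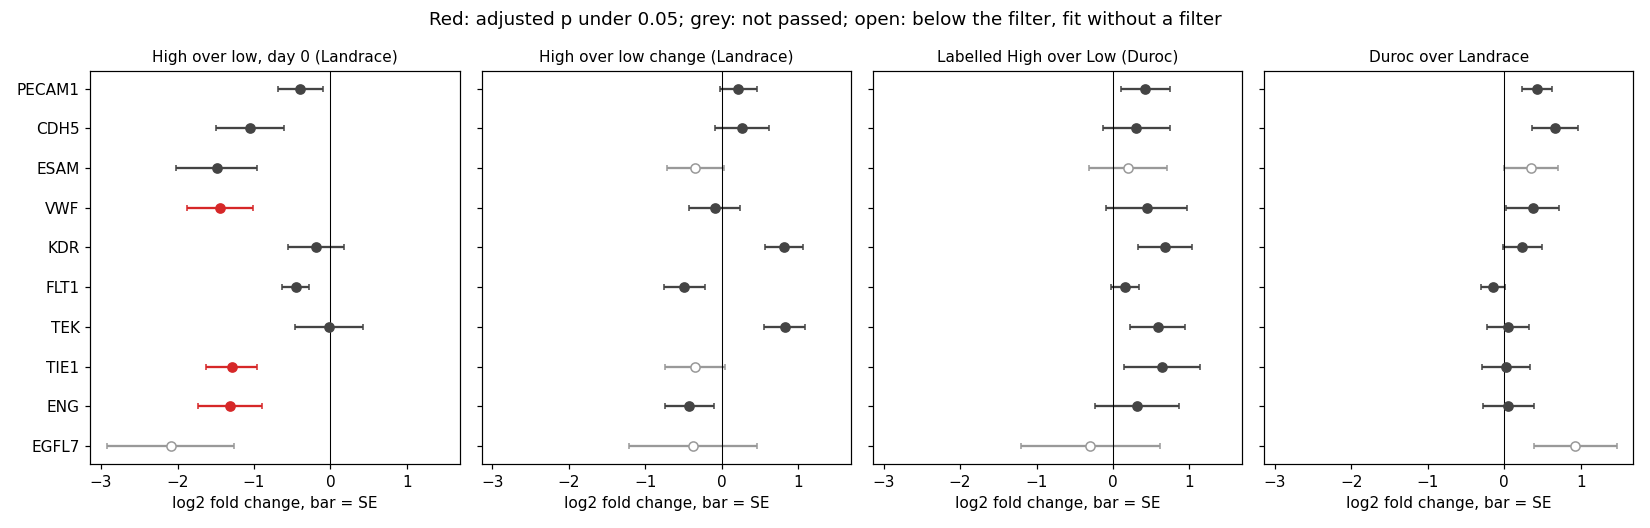
Each panel shows 1 comparison, with the log2 fold change of each gene on the x axis and a bar of 1 SE. Red points passed an edgeR adjusted p of 0.05, grey points did not, and open points are genes below the filter, from a fit without it. Red points occur in the day 0 Landrace panel alone (VWF, TIE1 and ENG), and KDR and TEK are the rightmost points of the panel for change over storage.

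In Duroc by the labels, 0 of the 8 members tested passed, as did 0% of the 13043 genes tested by edgeR. The likelihood ratio test and DESeq2 also called 0 genes, and 158 genes (1.21%) stood at an unadjusted p under 0.05. All 8 members had higher values in the boars labelled High, from 0.16 (FLT1) to 0.68 (KDR) on the log2 scale, beside a median of 0.04 for all genes, of which 41.2% were below 0, and each had an edgeR adjusted p of 1.0. Single boars moved these values widely. Leaving out 1 boar gave 0.04 to 1.10 for VWF and 0.02 to 0.97 for CDH5, lowest without D6 and highest without D9. For FLT1 it gave 0.04 without D9 to 0.29 without D6, with an edgeR adjusted p of at least 0.998 in each. KDR was at 12.5, 9.08, 22.1, 8.28 and 15.98 CPM in D1 to D5 and 6.04, 8.23 and 11.3 CPM in D6, D7 and D9. VWF was at 16.6, 3.56, 12.5, 9.41 and 16.04 CPM against 3.38, 8.12 and 14.4 CPM. Both groups held boars at either end of the VWF range. TIE1 was at 1.99, 0.613, 1.12, 1.71 and 1.96 CPM against 0.510, 0.950 and 1.41 CPM, and the groups overlapped.

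Whether the effect of the labelled level differed between the breeds was tested over the 16 day 0 libraries. The value of the Duroc effect was above that of the Landrace effect in all 8 members tested, by 0.58 (TEK and FLT1) to 1.91 (TIE1) on the log2 scale. For TIE1 the SE was 0.61 and for VWF, at 1.87, it was 0.77. Neither passed (edgeR adjusted p = 0.329 for both, unadjusted 0.0061 and 0.0266), as 0% of 12920 genes passed, while 1946 genes stood at an unadjusted p under 0.05. The likelihood ratio test called 3 genes and DESeq2 12, none of them members. If the Duroc labels were crossed, these differences would change.

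Between the breeds, 0 of the 8 members tested passed in 8 Duroc against 13 Landrace boars, where 2.88% of 13126 genes passed by edgeR, 1.35% as higher and 1.53% as lower in Duroc. The likelihood ratio test and DESeq2 called 0 members too. Of the members tested CDH5 had the largest difference in value, with 3.08, 5.92 and 9.44 CPM as the lowest, median and highest in Duroc and 0.802, 3.57 and 6.82 CPM in Landrace. Its log2 fold change was 0.66 (SE 0.30; edgeR adjusted p = 0.347, unadjusted 0.037). PECAM1 was next, at 10.3, 14.8 and 25.7 CPM against 5.29, 12.7 and 16.5 CPM, a log2 fold change of 0.43 (SE 0.20; edgeR adjusted p = 0.375, unadjusted 0.0426). For both the Duroc range began and ended above that of Landrace, with broad overlap.

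The remaining members tested were closer. EGFL7, which was not tested, had means of 0.143 CPM in Duroc and 0.0727 CPM in Landrace. VWF had a lowest, median and highest level of 3.38, 10.9 and 16.6 CPM in Duroc and 1.75, 8.45 and 15.7 CPM in Landrace. FLT1 had 15.3, 21.2 and 24.3 CPM in Duroc and 10.7, 24.4 and 30.6 CPM in Landrace. The log2 fold changes ran from -0.15 (FLT1, SE 0.15) to 0.37 (VWF, SE 0.35), and TIE1 was level, with means of 1.28 ± 0.578 CPM (SD) in Duroc and 1.28 ± 0.640 CPM (SD) in Landrace.

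The ligands, co-receptors and partners of these receptors were followed as a list of 18 genes, of which 16 were named in the files and 13 were tested in contrast (i) and between the breeds. In contrast (i) 2 of the 13 fell and 0 rose, with a median log2 fold change of -0.18. This count is near the 15.8% of all genes tested that were called lower. FLT4, the VEGF-C receptor of lymphatic endothelium, was at 2.10, 0.797, 1.25 and 0.714 CPM in the high and 3.23, 3.32, 4.14 and 5.40 CPM in the low boars. ACVRL1, or ALK1, the receptor that ENG assists, was at 2.46, 1.07, 2.21 and 0.990 CPM in the high and 2.43, 6.38, 6.64 and 3.91 CPM in the low boars. The groups did not overlap for FLT4 and touched for ACVRL1 through L1 and L5. Their log2 fold changes were -1.80 (SE 0.37; edgeR adjusted p = 0.0208) and -1.60 (SE 0.41; edgeR adjusted p = 0.0254). The FLT4 call was lost without L3 or L6, and the ACVRL1 call without L3, L6 or L8.

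The other receptor partners of contrast (i) did not pass. BMPR2, the type II receptor that acts with ACVRL1, was at 63.0 ± 14.7 CPM in the high and 43.5 ± 3.22 CPM in the low boars (SD, n = 4 each), a log2 fold change of 0.46 in the opposite direction to ENG and ACVRL1 (edgeR adjusted p = 0.0654). TGFBR2, the type II TGF-beta receptor, was at -0.35 and the ligand TGFB1 at -0.44. The VEGF co-receptors NRP1 and NRP2 were at -0.24 and -0.18, and the phosphatase PTPRB, which acts on TEK, at -0.09. Among the ligands, VEGFA was at -0.38, VEGFC at 0.46 and VEGFD at -0.11 on the log2 scale, and ANGPT1 and ANGPT2, the angiopoietins that bind TEK, at 0.31 and 0.20. The VEGF and angiopoietin ligands thus had values on both sides of 0 where TIE1 and ENG fell.

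In contrast (iii) 0 of 12 partners passed, with a median log2 fold change of 0.26. At an unadjusted p under 0.05 stood 5 of the 12, where 19.8% of all genes did. They were VEGFC (1.02), TGFBR2 (0.89), BMPR2 (0.70) and PTPRB with higher values in the high change boars and FLT4 (-0.95) with lower ones, and none passed (edgeR adjusted p = 0.24 for each). PTPRB was at 13.5, 14.6 and 15.9 CPM in the high and 9.54, 9.22, 10.4 and 7.78 CPM in the low boars, with no overlap and a log2 fold change of 0.66 (SE 0.18; edgeR adjusted p = 0.24, unadjusted 0.00446). In the Duroc groups 0 of 12 passed.

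Between the breeds 1 of 13 partners passed, where 2.88% of all genes tested did, 1.35% as higher in Duroc. PTPRB, also known as VE-PTP, an endothelial phosphatase that acts on TEK, was higher in Duroc. The 8 Duroc boars had a mean of 18.6 ± 5.66 CPM (SD) and the 13 Landrace boars one of 9.42 ± 3.46 CPM (SD). Its lowest, median and highest levels were 8.33, 19.1 and 27.1 CPM in Duroc and 3.73, 8.79 and 15.9 CPM in Landrace. The ranges overlapped through D4, at 8.33 CPM, and through L15, at 15.9 CPM and above D6 and D7. The log2 fold change was 1.005 (SE 0.22; edgeR adjusted p = 0.00949). It passed in all 21 fits that leave out 1 boar, with 0.89 to 1.11 on the log2 scale, and in all 8 alternatives run. Among the 8, the fit over day 0 libraries with the labelled level as a term gave 1.23. TEK itself was at 0.05 (SE 0.27) between the breeds, and ANGPT2 at 0.51 (SE 0.16; edgeR adjusted p = 0.0929). FLT4 was at -0.77, VEGFD at -0.56, ACVRL1 at -0.39 and the other 8 partners between -0.31 (VEGFC) and 0.28 (TGFBR2). Of other cell types, 1 of 5 macrophage and 1 of 10 Sertoli genes tested passed as higher in Duroc. Of the pericyte and smooth muscle genes 0 of 9 passed, with a median of 0.25. The part of these cell types in the PTPRB difference was not tested.

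**Figure D3:**
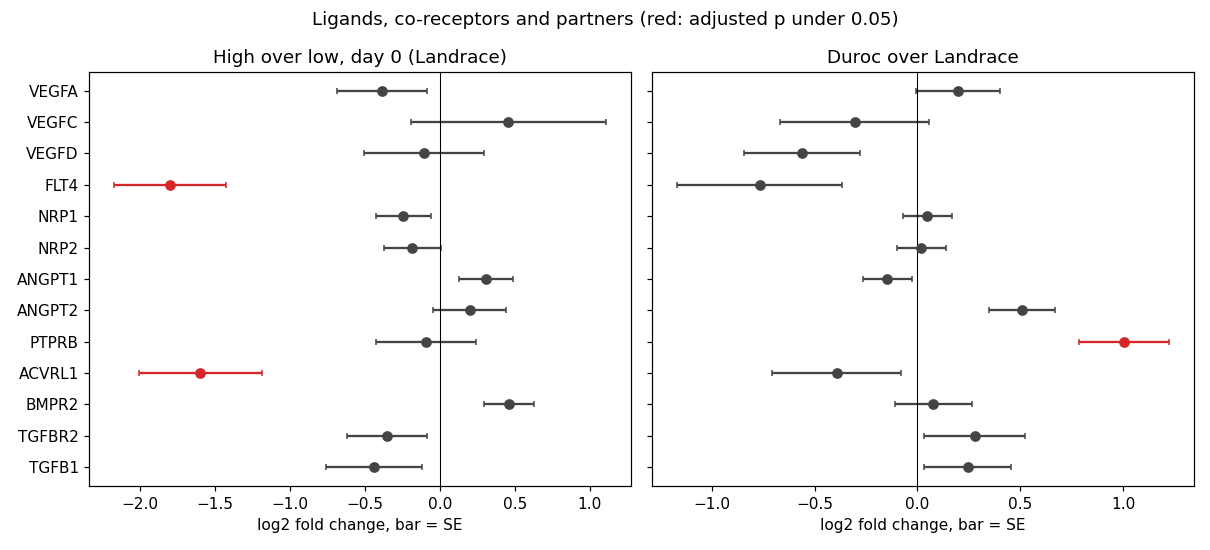
The log2 fold change of 13 ligands, co-receptors and partners is plotted with a bar of 1 SE, for high over low Landrace boars at day 0 (left) and for Duroc over Landrace (right). Red points passed an edgeR adjusted p of 0.05: FLT4 and ACVRL1 on the left at -1.80 and -1.60, and PTPRB on the right at 1.005.

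A wider list of 40 endothelial genes had 33 named in the files and 24 tested in contrast (i), of which 5 fell and 0 rose, with a median of -0.25. Of all genes tested 15.8% were called lower and 20.7% in either direction, so this count too is near the background. Those that fell, named after their values were seen, were MMRN2, an extracellular matrix protein of vessels (-1.39), RASIP1, a Ras-binding protein of vessel lumens (-1.04), CD34, a sialomucin (-0.94), the Notch ligand DLL4 (-0.93) and NOS3, endothelial nitric oxide synthase (-0.84), with edgeR adjusted p from 0.0241 to 0.0472. The 3 lowest log2 fold changes were those of ROBO4 (-1.52), MMRN2 and CD93 (-1.17), and ROBO4 and CD93 did not pass (edgeR adjusted p = 0.0853 and 0.0838). The 3 highest were TM4SF1 (0.58), the transcription factor FLI1 (0.50) and TFPI (0.42), and none of them passed. The wider list summed to 204 to 299 CPM in the high and 201 to 249 CPM in the low boars, and the totals overlapped. The summed level of the 10 members overlapped too, at 33.6 to 75.5 CPM in the high and 64.7 to 88.7 CPM in the low boars.

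Between the breeds 0 of the 25 wider endothelial genes tested passed, with a median of 0.27. The highest log2 fold changes in Duroc were those of CD93 (1.16), ROBO4 (1.15) and MYCT1 (0.79), and the lowest those of ERG (-0.49), NOS3 (-0.46) and FLI1 (-0.40), with edgeR adjusted p from 0.193 to 0.715. In contrast (iii) 0 of 24 and in the Duroc groups 0 of 26 passed, with medians of 0.30 and 0.50.

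The members were then compared with each other across boars, within each breed, on log2 CPM. Each of the 45 pairs was tested by permutation (100000 permutations in Landrace) with Benjamini-Hochberg adjustment over the 45. Without FLT1, 34 of 36 pairs were positively correlated over the 13 Landrace boars, with a median Pearson's r of 0.62, and 19 passed an adjusted p of 0.05. By Spearman's rho 5 of the 36 passed, namely CDH5 with KDR, VWF with ENG, VWF with EGFL7, KDR with TEK and ENG with EGFL7. Without the 2 boars farthest from the median, of which L8 was most often one, the r of the 19 pairs ran from 0.318 (PECAM1 with VWF) to 0.886 (KDR with TEK), and their p without those boars was not computed. The means of all high and of all low boars were then subtracted, with day 0 and storage change labels pooled. After that 24 passed by r and 15 by rho. The 9 pairs with FLT1 had a median r of 0.32, and 1 passed, FLT1 with TIE1 (r = 0.674, rho = 0.522, adjusted permutation p = 0.0244), whose r fell to 0.361 without L13 and L6, so that this relation rests on those boars. In the 8 Duroc boars the median r was 0.685 without FLT1 and -0.12 with it, with 3 and 0 pairs passing by r and 0 of either kind by rho. After the means of high and low boars were subtracted, 7 and 0 pairs passed by r and 9 and 0 by rho. The median r with FLT1 was thus below that of the other pairs in both breeds, and the difference was not tested. Such correlations are computed on shares of a library, and the boars of both breeds were picked from extremes.

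The closest pair in Landrace was KDR with TEK, at r = 0.950 (adjusted permutation p = 2.2e-04) and Spearman's rho = 0.868 (adjusted permutation p = 0.00596), and r = 0.886 without L13 and L8. In Duroc it was at r = 0.846 and rho = 0.738 (adjusted permutation p = 0.0601 and 0.129), and r = 0.729 without D3 and D6. VWF with ENG followed in Landrace, at r = 0.932 and rho = 0.923 (adjusted permutation p = 2.2e-04 and 0.00225), and r = 0.861 without L8 and L6. CDH5 with VWF had r = 0.879 and rho = 0.676 (adjusted permutation p = 9.0e-04 and 0.0627), and r = 0.703 without L8 and L3. CDH5 with VWF thus passed by r and not by rho, and no test was run without the boars left out.

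No positive relation was detected between receptors of the same family. KDR and FLT1 had r = -0.33 and rho = -0.20 in Landrace (adjusted permutation p = 0.311 and 0.584). TEK and TIE1 had r = -0.19 and rho = -0.20 (adjusted permutation p = 0.562 and 0.584). The counts of FLT1 over those of KDR ran from 0.569 in L13 to 4.45 in L8, so this ratio of counts differed several-fold between boars. FLT1 had an r of only 0.126 with the mean of the other 9 members over the 21 libraries. Whether the ratio follows the receptors of endothelial cells was not tested. In contrast (iii) this ratio was 0.569 to 2.04 in the high and 2.30 to 4.04 in the low change boars, which is a description of a ratio chosen after its values were seen. In contrast (i) it was 1.45 to 4.45 in the high and 2.07 to 3.75 in the low boars, and in Duroc 0.896 to 2.65 in the boars labelled High and 1.36 to 4.03 in those labelled Low, with overlap in both. The ratio of TIE1 over TEK counts ran from 0.0734 in L13 to 1.11 in L4.

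**Figure D4:**
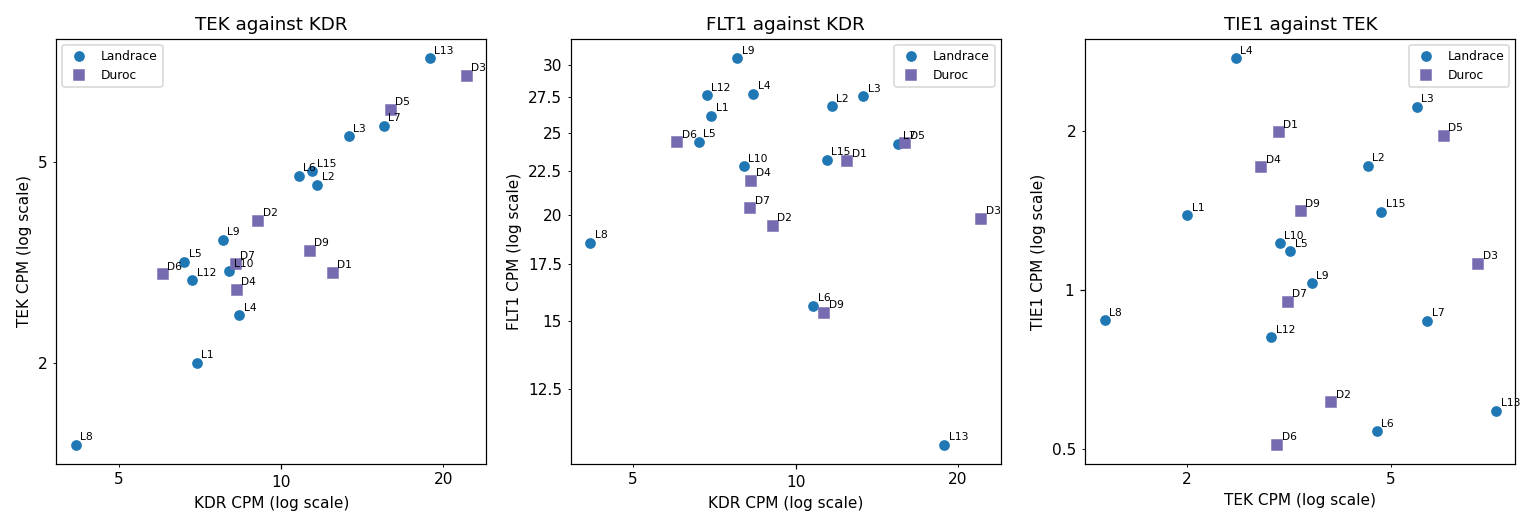
CPM of the receptors are plotted against each other on log axes, with a point per boar, circles for Landrace and squares for Duroc. TEK climbs with KDR (r = 0.950 in Landrace), while FLT1 against KDR and TIE1 against TEK show no such line, and L13 is at the high end of KDR and TEK and the low end of FLT1.

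Among 11038 named genes, those whose profile over the 21 libraries, with breed means subtracted, was most like the mean of the 10 members were MCAM (r = 0.950), GSN (0.937), CSRP1 (0.928), STAT6 (0.928), CTDSP1 (0.928), MYH11 (0.921), ACTN1 (0.917) and ROBO4 (0.915). These r are a description of the highest values in a search, with no test, over libraries of unequal depth. MCAM is an adhesion molecule of endothelium and pericytes, MYH11 the heavy chain of smooth muscle myosin, and ROBO4 an endothelial receptor. Set against the mean of the other 9 members, CDH5 had the highest r (0.951), then VWF (0.916), and FLT1 the lowest (0.126). The 8 genes most like FLT1 alone, a search added after seeing the data, were ABCF2 (r = 0.877), OSBP2 (0.875), BLK (0.873), CDYL (0.859), TBCB (0.857), TXNRD3 (0.852), CFAP52 (0.851) and PLAGL2 (0.851). TXNRD3 is a thioredoxin reductase of testis and CFAP52 a protein of cilia and flagella. Of the 8, 0 were among those most like the members' mean. For the mean of the other 9 members 6 of the 8 were shared.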

How the data were processed

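Testis RNA of 21 boars was analysed. The authors made stranded poly(A) libraries, sequenced 100 bp single reads, trimmed them with Trimmomatic 0.36, aligned them to Sscrofa11.1 with STAR and counted them per Ensembl gene with HTSeq. The deposited values are raw counts per gene, 1 file per boar, with 29.4% to 39.0% of listed reads in rows that name no gene, which were left out. High and low follow the deposited labels, since the study's text and count table differ on direction in Landrace.

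Counts were fitted per comparison with edgeR 4.0.16 in R 4.3.3 (TMM, at least 1 CPM in at least 4 libraries, 8 for breeds, quasi-likelihood test, Benjamini-Hochberg adjustment over all genes tested, threshold 0.05). SEs came from the fold change and its test statistic. Log2 CPM used a prior count of 2. The alternatives were the likelihood ratio test of the study's methods, DESeq2 1.42.0, relative log expression scaling, other filters, a robust fit, no mitochondrial genes, all libraries in 1 fit and leaving out boars. A GC correction was not run. No 2 libraries were identical. Whether the breeds were processed apart is not given in the sources used here.

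The fit was tested on simulated data with 200 genes changed by 1 on the log2 scale. It recovered 103 among 12979 genes for contrast (i), 71 among 12824 for contrast (iii), 63 among 13043 for Duroc and 170 among 13126 for breeds. It also called 8, 7, 3 and 2 unchanged genes. These recoveries hold for 200 changed genes, while 2682 were called in the real contrast (i), where recovery may differ.

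The members and lists were chosen with earlier results of these data known. Named were all members, all tested partners, the 3 highest and 3 lowest of the wider endothelial list in contrast (i) and between breeds, and the 8 genes most like the members. The wider list's called genes in contrast (i) and the 8 genes most like FLT1 were named after their values were seen. Other cell type lists are given as counts and sums, with a few single genes named for their levels. Gene symbols came from an identifier table that named 14857 genes, and coordinates from RefSeq.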

Additional observations from a re-analysis of the deposited data

Results flagged for a closer look

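In 3 of 50 groups of 4 to 8 boars 1 boar stood far from the rest by Dixon's ratio, where chance gives about 2.5. CDH5 in L2 was at 6.7 CPM, above the 2.80 to 3.09 CPM of the other low change boars, while among the day 0 low boars L3 was as high. EGFL7 in L1 was at 0.036 CPM, below the 0.161 to 0.182 CPM of the other day 0 low boars. EGFL7 in L7 was at 0.0775 CPM, above the 0.0125 to 0.0172 CPM of the other day 0 high boars. Both EGFL7 values rest on 2 and 7 reads.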

How the results depend on the processing

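Of contrast (i)'s 3 calls among the members, DESeq2 gave 5 and the fit of all 21 libraries 0, the likelihood ratio test 4, and the other 6 alternatives 3 each. Leaving out 1 boar at a time gave 0 to 4, and over all genes 1 to 3764 calls against 2682. In all other comparisons 0 members were called under every alternative and without any 1 boar. Over all genes DESeq2 called 4334 in contrast (i) (63.0% lower, against 76.7%) and the 21-library fit 1, and between breeds DESeq2 called 787 and the fit with the level as a term 230, against 378. Without L2 and L7 contrast (i) had 1938 genes called lower and 88 higher, against 2056 and 626 in the main fit. The likelihood ratio test of contrast (iii) called 64, DESeq2 161, and no filter and filterByExpr 1 each, and for the difference of the effect between breeds the likelihood ratio test called 3 and DESeq2 12. Leaving out 1 boar gave 0 to 1 calls in contrast (iii), 0 to 2 in Duroc, 0 to 1 for the breed difference of effects and 268 to 491 between breeds. Subtracting the means of high and low boars moved the pairs that passed by r from 1 to 0 with FLT1 in Landrace. In Duroc without FLT1 it moved them from 3 to 7 by r and from 0 to 9 by rho.

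Directions turned for values that had not passed. TEK in contrast (i) became 0.066 with DESeq2, 0.0050 with relative log expression, 0.040 without a filter and 0.019 with filterByExpr, and -0.34 to 0.27 without 1 boar. VWF in contrast (iii) became 0.23 without L2 and L7, and -0.28 to 0.27 without 1 boar. KDR in contrast (i) ran from -0.58 to 0.065 and PTPRB there from -0.49 to 0.15. Between breeds TIE1 was -0.0011 with DESeq2 and -0.11 to 0.17 without 1 boar, ENG -0.13 to 0.23 and TEK -0.12 to 0.17. The causes were not tested. No paired analysis was possible because each library is a different boar and replicate numbers only name boars. Depth limits EGFL7, at 1 to 19 reads, and no GC correction was run.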
